A study of Mus musculus with 267 samples.

Results

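EGR2 sites gained only at 24 h were the peaks of the transcription factor EGR2 that appeared in C57 macrophages after 24 h of interleukin-4 (IL-4) and overlapped, by 1 bp or more, no EGR2 peak of untreated cells or of cells given IL-4 for 1 or 6 h. By this rule 14237 of the 29407 EGR2 peaks at 24 h were members (48.4%). Of the other peaks, 8085 were present in untreated cells (27.5%) and 7085 were gained at 1 or 6 h (24.1%). The measured EGR2 peaks of C57 therefore chose the members, and EGR2 signal in C57 is given below as a description.

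Chromatin immunoprecipitation with sequencing (ChIP-seq), which reads the DNA bound by a protein or a histone mark, was applied to bone marrow-derived macrophages (BMDMs) cultured with M-CSF. C57BL/6J (C57) macrophages were left untreated (basal) or given 20 ng/mL IL-4 for 1, 6 or 24 h, and those of 4 more strains, SPRET/EiJ (SPRET), BALB/cJ (BALB), PWK/PhJ (PWK) and NOD/ShiLtJ (NOD), were basal or given the same dose for 24 h. Loss of EGR2 was modelled by 2 genotypes, each basal or with 24 h of IL-4: macrophages with floxed Egr2 alleles and no Cre (Egr2 fl/fl) and macrophages with the same alleles and LyzM-Cre, a Cre recombinase expressed from a myeloid gene (LyzM-Cre Egr2 fl/fl). EGR2 itself was not analysed here in either genotype. Groups held 2 libraries unless another number is given, and C57 RNA polymerase II (Pol II) held 4 basal and 3 24 h libraries.

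EGR2 is a zinc finger transcription factor of the early growth response family, which binds GC-rich sites and works with NAB proteins as corepressors. IL-4 activates STAT6 through its receptor and the Janus kinases, and macrophages then take on a state of alternative activation, marked by genes of repair, lipid handling and antigen presentation. PU.1 and C/EBP factors select most macrophage enhancers, and PPARg, a lipid-activated nuclear receptor, is another factor of the IL-4 response. EGR2 is known as a factor of the late part of that response in macrophages.

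The sequences below belong to sites that recur in the results, and show what letters lay under EGR2 peaks at the extremes of this class. The first 5 come from the 6 sites whose EGR2 rose most over basal. The remaining 4 come from the sites ranked by acetylated histone H3 lysine 27 (H3K27ac), found at regulatory DNA in use. At those sites this mark rose most with IL-4 or was lowest in the LyzM-Cre genotype. Each is the 200 bp around the peak centre in mm10, in lower case, with capitals at matches to EGR letters (on either strand, the form GCGTGGG, or the overlapping form GTGGGCG, or the looser form GGGNGTGG) and STAT letters (TTC and GAA separated by 3 or 4 bases).
Csf1 window, chr3:107801580-107801779, plus strand: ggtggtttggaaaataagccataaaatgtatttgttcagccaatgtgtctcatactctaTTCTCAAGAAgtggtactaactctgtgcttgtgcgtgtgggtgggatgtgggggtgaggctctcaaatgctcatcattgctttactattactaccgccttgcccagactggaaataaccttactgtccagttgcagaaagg
Cd47 window, chr16:50010742-50010941, plus strand: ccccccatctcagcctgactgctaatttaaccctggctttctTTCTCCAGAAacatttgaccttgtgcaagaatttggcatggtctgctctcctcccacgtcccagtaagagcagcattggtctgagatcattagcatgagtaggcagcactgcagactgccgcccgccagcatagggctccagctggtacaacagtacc
Diaph3 window, chr14:86904084-86904283, plus strand: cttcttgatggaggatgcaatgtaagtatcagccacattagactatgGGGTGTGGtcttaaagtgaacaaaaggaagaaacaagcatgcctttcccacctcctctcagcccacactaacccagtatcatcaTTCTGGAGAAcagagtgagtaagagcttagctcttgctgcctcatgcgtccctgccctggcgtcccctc
Sft2d2 window, chr1:165193426-165193625, plus strand: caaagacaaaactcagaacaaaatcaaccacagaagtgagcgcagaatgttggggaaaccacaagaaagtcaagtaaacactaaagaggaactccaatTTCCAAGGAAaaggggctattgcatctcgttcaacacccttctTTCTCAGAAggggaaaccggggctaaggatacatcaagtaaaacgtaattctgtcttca
Fbn1 window, chr2:125445715-125445914, plus strand: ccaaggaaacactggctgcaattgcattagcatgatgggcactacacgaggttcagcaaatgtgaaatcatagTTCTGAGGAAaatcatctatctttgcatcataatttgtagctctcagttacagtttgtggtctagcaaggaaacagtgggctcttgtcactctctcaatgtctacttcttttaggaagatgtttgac
Mef2c window, chr13:83024086-83024285, plus strand: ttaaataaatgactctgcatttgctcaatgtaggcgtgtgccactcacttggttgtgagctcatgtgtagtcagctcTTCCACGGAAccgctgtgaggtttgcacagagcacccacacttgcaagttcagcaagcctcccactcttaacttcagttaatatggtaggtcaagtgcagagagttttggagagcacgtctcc
Chic2 window, chr5:74949406-74949605, plus strand: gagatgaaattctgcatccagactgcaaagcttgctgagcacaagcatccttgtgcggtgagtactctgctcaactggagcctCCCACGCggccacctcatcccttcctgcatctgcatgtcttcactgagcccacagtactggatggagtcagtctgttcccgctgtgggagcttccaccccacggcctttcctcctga
Dact2 window, chr17:14203147-14203346, plus strand: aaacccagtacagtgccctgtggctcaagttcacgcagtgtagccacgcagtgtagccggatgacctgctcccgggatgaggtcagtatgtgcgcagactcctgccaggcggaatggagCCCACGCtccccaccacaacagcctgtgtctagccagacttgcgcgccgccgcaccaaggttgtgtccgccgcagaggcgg
Smyd3 window, chr1:178980998-178981197, plus strand: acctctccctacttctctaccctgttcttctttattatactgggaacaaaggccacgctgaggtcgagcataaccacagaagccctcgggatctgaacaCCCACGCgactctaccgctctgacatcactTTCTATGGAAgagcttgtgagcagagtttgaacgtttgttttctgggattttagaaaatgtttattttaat

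The Diaph3, Sft2d2, Fbn1, Dact2 and Smyd3 windows lay in introns of those genes. The Csf1, Cd47, Mef2c and Chic2 windows were intergenic and carry the name of the gene with the nearest start, which was 41211 bp away for Csf1, 210309 bp for Cd47, 479848 bp for Mef2c and 95268 bp for Chic2. STAT letters stood in all 5 windows chosen for the EGR2 rise, and EGR letters stood in only the Diaph3 window of those 5. The sixth site of that rise, in a UTR of Rhot2 and not printed, also had STAT letters and no EGR letters. Of the remaining 4, EGR letters stood in the Chic2, Dact2 and Smyd3 windows and STAT letters in the Mef2c and Smyd3 windows. The other sites of those H3K27ac rankings, at Mcf2l, Slc7a14, Pzp and Galnt9, are not printed. None of them had EGR letters, while those at Mcf2l, Slc7a14 and Pzp had STAT letters. A match of letters is a description of the window and not a binding site. These windows were picked by rank and do not stand for the class: over all members STAT letters stood in 12.7% of windows and EGR letters in 24.0%.

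Signal is given as normalized tags, which are reads per 10000000 reads of the library, so that 1 normalized tag stood for 0.573 to 2.91 reads in the 102 libraries used. Library totals ran from 5728050 to 29050468 reads, and for EGR2 from 5728050 to 22280181. The macrophage label was checked at gene starts by H3K4me3 and H3K27ac: all 6 macrophage markers had an open region within 1 kb, where basal H3K4me3 ran from 182 to 542 normalized tags at Adgre1, Itgam, Cd68, Lyz2 and Mertk. Csf1r had 1.58 normalized tags of H3K4me3 at its annotated start and 294 of H3K27ac. T cell and liver markers had no region (0 of 3 and 0 of 2 genes), and fibroblast and granulocyte markers had 1 of 3 each, with basal H3K4me3 of 15.9 at Col1a1 and 18.4 at S100a8. The summed H3K4me3 of the macrophage list was 1814 normalized tags.

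EGR2 signal was present at low level at these sites before IL-4 and was highest at 24 h in most of them. The median site held 13.6 and 14.8 normalized tags in the basal libraries, 4.52 and 15.4 at 1 h, 10.5 and 21.9 at 6 h, and 26.9 and 21.1 at 24 h. Both 24 h libraries lay above both basal libraries, while the 6 h libraries overlapped the 24 h ones. The 1 h library with 4.52 normalized tags had 5.38% of its reads in EGR2 regions, against 10.8% to 22% in the other EGR2 libraries, and the part of this in the 1 h values was not tested. Sites already bound in basal cells had medians of 60.9 and 80.6 normalized tags before IL-4 and 122 and 84.5 at 24 h, so the gained sites were also the weaker ones at 24 h.

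**Figure D1:**
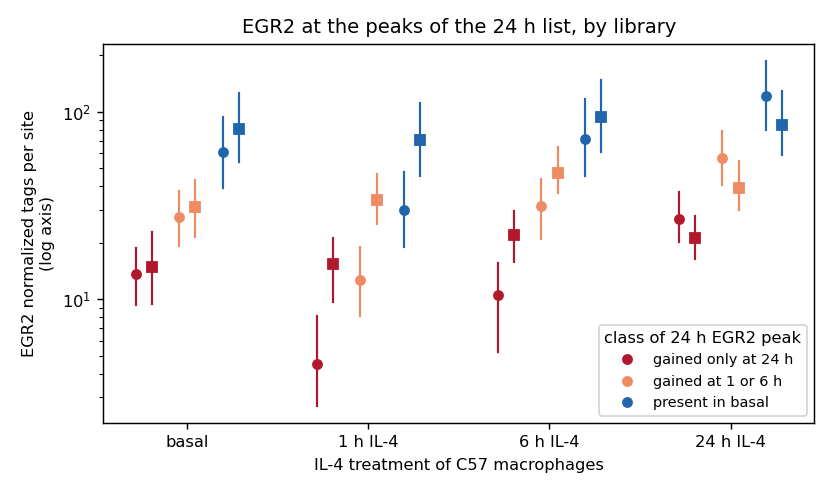
EGR2 normalized tags per site (log axis) at the peaks of the 24 h list in C57 macrophages, by hours of IL-4, with a circle for replicate 1 and a square for replicate 2 at the median site and lines from the lower to the upper quartile. At sites gained only at 24 h the 24 h libraries (26.9 and 21.1) lie above the basal libraries (13.6 and 14.8), and all libraries lie below those of sites present in basal cells.

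The mean of the 24 h libraries exceeded the basal mean at 94.5% of the sites, which the rule favoured. A clear rise was less common: 2312 members (16.2%) were at least 2.5-fold above basal (pseudocount 1, at least 8 normalized tags at 24 h or basal) with libraries that did not overlap, against 10.9% of the 30675 regions of the EGR2 table. The median difference on the log2 scale was 0.75 against basal, 1.2 against 1 h and 0.59 against 6 h. A peak of this class thus marks a site that passed the peak caller's reproducibility filter only at 24 h, in most cases without a change of 2.5-fold.

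Values near the edge of the rule show how narrow it was. The 25 members whose nearest earlier peak was 1 to 50 bp away had median EGR2 of 53.0 normalized tags in basal cells and 85.1 at 24 h, and the 17 other 24 h peaks that overlapped an earlier peak by only 1 to 50 bp had 53.1 and 77.7. The number of members also moved with the length of the lists, which held 8437 peaks in basal cells, 13562 at 1 h, 13072 at 6 h and 29407 at 24 h. When all 4 lists were shortened to 8437 peaks, 626 24 h peaks had no earlier overlap (7.42%), and 1966 of the 14703 best-scored 24 h peaks had none (13.4%). In the EGR2 table, which holds the authors' own assignment of regions to time points, 12698 of the members were 24 h only and 1520 also had a basal assignment. Those assignments covered 13601 regions in basal cells and 7422 at 1 h, unlike the lists. At 6 h and 24 h they covered 13072 and 29407, as the lists did. Which source is right for basal cells and 1 h is not known, and the classes used here rest on the lists.

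Most members nevertheless lay far from any earlier EGR2 peak. The median distance was 15718 bp with quartiles of 3971 and 46810 bp, 706 members lay within 500 bp, and 1666 were more than 100 kb away. By contrast the placed sites with the highest EGR2 at 24 h sat close beside earlier peaks. The strongest lay 203 bp from the start of Fem1b, which encodes a substrate receptor of a ubiquitin ligase, at chr9:62812030-62812244, 13 bp from an earlier peak. Its EGR2 was 166 and 141 normalized tags in basal cells, 42.5 and 141 at 1 h, 155 and 324 at 6 h and 487 and 214 at 24 h, so its 6 h and 24 h libraries overlapped. The next 4 placed sites, at Pkdcc, Pabpc1, Tet2 and Morf4l2, lay 44 to 198 bp from an earlier peak. The member with the highest mean lay on an unplaced contig with no gene, where libraries ranged from 150 to 1377 normalized tags and those of the 4 time points overlapped.

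The gained sites lay mainly outside promoters. In the authors' annotation 44.5% were intronic, 34.2% intergenic and 15.4% at promoters, while promoters made up 24.4% of the sites gained at 1 or 6 h and 43.5% of those present in basal cells. The median distance to a protein-coding gene start was 16747 bp, against 10508 bp and 1499 bp in those classes, and 18.7% of members lay within 1 kb of a start. Peak scores followed the same order, with the top score in 18.2% of members, 75.2% of sites gained at 1 or 6 h and 97.1% of basal sites.

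Open chromatin was already present at most of them. A region of open chromatin in C57 lay within 500 bp of 11228 members (78.9%). At 64.9% of members such a region was open in basal cells, at 3.22% it was open only at 24 h, and 21.1% had none nearby. For sites gained at 1 or 6 h the share open in basal cells was 79.2%, and for sites present in basal cells 85.5%.

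Peaks of the other macrophage factors became more frequent at these sites between basal and 24 h. PU.1 peaks (labelled PU1), which mark macrophage enhancers, overlapped 50.0% of members in basal cells (95% exact binomial interval 49.2 to 50.8) and 58.3% at 24 h (57.5 to 59.1). The share with a CEBPb peak was 23.9% in basal cells and 42.8% at 24 h. For STAT6 it was 34% and 48.3%, and for PPARg 7.16% and 36.4%. STAT6 peaks overlapped 32.4% at 1 h and 35.1% at 6 h. Each list stands for a group of libraries, so these shares have no replicate error, and the intervals cover counting over sites only.

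**Figure D2:**
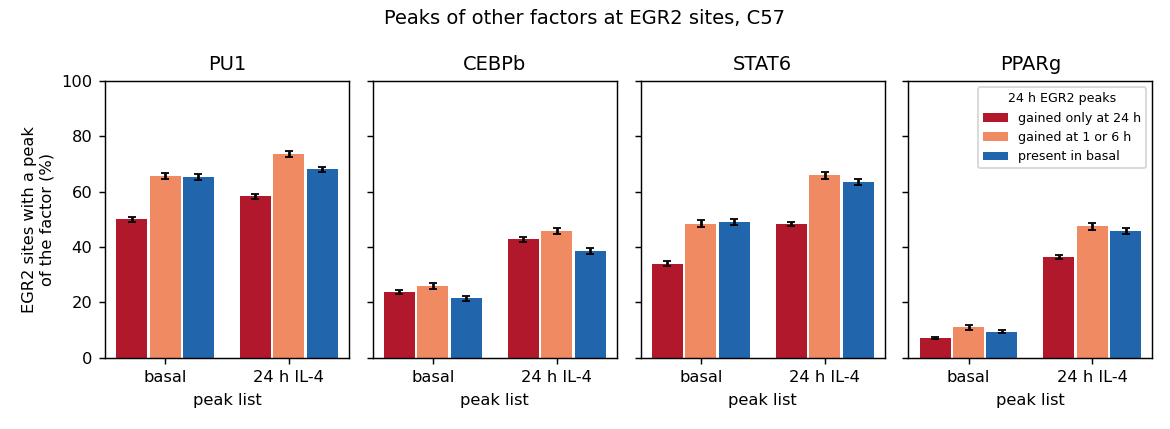
Share of EGR2 sites (%) that overlapped a peak of PU1, CEBPb, STAT6 or PPARg in basal and 24 h C57 macrophages, in 3 classes of 24 h EGR2 peaks, with exact 95% binomial intervals. At sites gained only at 24 h the PPARg share is 7.16% in basal cells and 36.4% at 24 h, and PU1 has the highest share in both lists.

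The list lengths differed in the same direction and bear on these shares. The basal and 24 h lists held 85916 and 90308 PU1 peaks, 18043 and 37499 CEBPb peaks, 30589 and 39537 STAT6 peaks, and 7627 and 39088 PPARg peaks. The STAT6 lists at 1 and 6 h were the shortest of that factor, with 24376 and 23884 peaks. Sites present in basal cells moved likewise, from 9.44% to 45.8% for PPARg and from 49.0% to 63.6% for STAT6. For CEBPb the members stood at 42.8%, between the sites gained at 1 or 6 h (45.8%) and those present in basal cells (38.7%), whereas for PU1 they were lowest in both lists (65.7% and 65.4% in the other classes in basal cells). How far list length set the shares was not tested.

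Few sites lost a factor peak, in lists that were longer at 24 h than in basal cells for each factor. A PU1 peak was present in both lists at 47.1% of members, at 24 h only at 11.3% and in basal cells only at 2.95%. PPARg was gained at 29.6% and lost at 0.443%, CEBPb at 19.4% and 0.485%, and STAT6 at 18.4% and 4.07%. None of the 4 factors had a peak at 42.3% of members in basal cells and at 25.4% at 24 h, while all 4 had one at 3.10% and 18.5%.

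EGR letters were found in 24.0% of the 200 bp windows of members (3421 of 14232, interval 23.3 to 24.7), against 33% at sites gained at 1 or 6 h, 47.7% at sites present in basal cells and 14.4% in windows of all 77943 open chromatin regions. Of the 3 forms, which overlap in part, GCGTGGG stood in 5.38% of members. The form GTGGGCG stood in 7.48% and GGGNGTGG in 14.8%. Where present, EGR letters lay a median of 24.0 bp from the peak centre, compared with 43.0 bp in open chromatin. The 14232 windows are those on placed chromosomes.

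**Figure D3:**
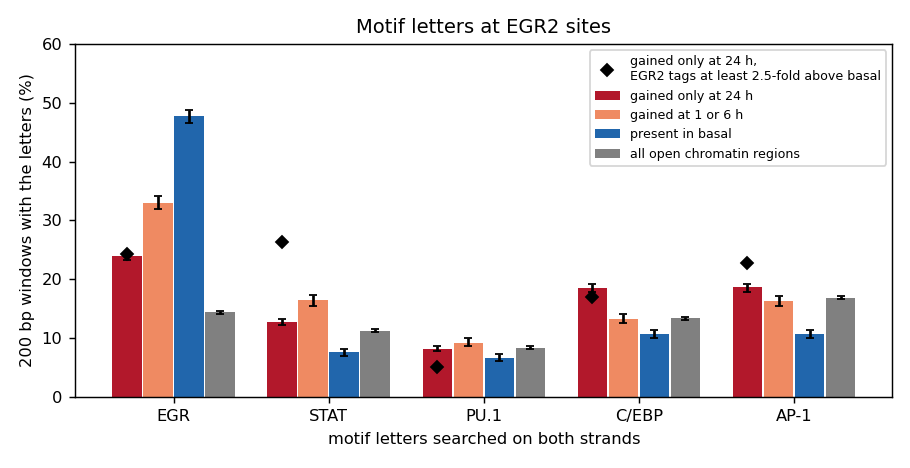
Share of 200 bp windows (%) that held EGR, STAT, PU.1, C/EBP or AP-1 letters on either strand, in 3 classes of 24 h EGR2 peaks and in all open chromatin regions of C57, with exact 95% binomial intervals and diamonds for the members whose EGR2 was at least 2.5-fold above basal in separate libraries. EGR letters run from 47.7% at sites present in basal cells to 24.0% at sites gained only at 24 h, and open chromatin stands at 14.4%.

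Letters of other factors differed less from open chromatin. C/EBP letters (TTGCNNCAA or TTGCNNAA) stood in 18.5% of member windows, against 13.3% and 10.6% in the earlier classes and 13.4% in open chromatin. AP-1 letters (TGANTCA), a site of Jun and Fos dimers, stood in 18.6%, against 16.3%, 10.6% and 16.8%. STAT letters stood in 12.7%, against 16.4%, 7.56% and 11.2%. PU.1 letters (GAGGAAGT) stood in 8.16%, near the 8.38% of open chromatin. The PPAR/RXR form (2 copies of AGGNCA separated by 1 base) was rare, at 0.302% of members and 0.371% of open chromatin. The classes also differed in base composition, with a median GC content of 50.0% in members, 53.0% at sites gained at 1 or 6 h, 61.5% at basal sites and 52.0% in open chromatin, and the part of GC content in the EGR shares was not tested.

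The 2312 members whose EGR2 rose 2.5-fold with separate libraries (a rule of size, with no test) differed from the other 11925 in several readouts. This subset was chosen after its values were seen, and is described without a test. STAT letters stood in 26.3% of its windows (interval 24.5 to 28.1) against 10.1% of the others (9.58 to 10.7), whereas EGR letters stood in 24.3% and 24.0%. AP-1 letters were at 22.7% against 17.8% and PU.1 letters at 5.06% against 8.77%.

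Peaks of PU1, STAT6 and PPARg were also less frequent at these sites before IL-4. The subset was cut by EGR2 at 24 h over basal, which favours sites with little basal EGR2. How far that choice set the shares below was not tested. PU1 peaks overlapped 29.8% of the subset in basal cells and 46.2% at 24 h, against 53.9% and 60.7% of the other members. STAT6 peaks overlapped 18% in basal cells, 27.6% at 1 h, 29.2% at 6 h and 45.1% at 24 h, against 37.1%, 33.3%, 36.2% and 48.9%. For PPARg the shares were 4.71% and 31.8%, against 7.64% and 37.2%. Open chromatin lay within 500 bp of 65.7% of the subset and 81.4% of the others.

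The 6 sites with the largest EGR2 rise are described as single loci. They were ranked by that rise, so low basal EGR2 there follows from the choice. The Csf1 site, 41211 bp from the start of the gene for macrophage colony-stimulating factor, had 1.87 and 0 normalized tags of EGR2 in basal cells, 5.42 and 36.6 at 1 h, 19.2 and 92.2 at 6 h and 56.5 and 67.2 at 24 h. Its 6 h and 24 h libraries overlapped, and both exceeded the basal libraries. The Cd47 site had 0.940 and 0 in basal cells, 6.98 and 23.9 at 6 h and 37.2 and 28.8 at 24 h, with the 24 h libraries above all others. Cd47 encodes the surface signal that restrains phagocytosis. In the Diaph3 intron, in a gene for an actin-nucleating formin, EGR2 was at 0 in both basal libraries and at 24.2 and 17.3 at 24 h.

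The remaining 3 differed in their setting. In the Fbn1 intron (fibrillin 1, an extracellular matrix gene) EGR2 was 1.40 and 1.34 in basal cells and 26.9 and 59.5 at 24 h, and the C57 lists held no peak of the 4 factors there in basal cells or at 24 h. In Egr2 fl/fl cells, however, CEBPb at this site was 0 and 8.98 in basal libraries and 78 and 63.4 at 24 h, and STAT6 was 3.09 and 0 and then 13.7 and 8.85. At the Rhot2 site, a gene of mitochondrial transport, EGR2 was 0 and 1.34 in basal cells and 76.3 and 78.7 at 24 h, where STAT6 and PPARg peaks were present. The Sft2d2 intron was the exception in having PU1 and CEBPb peaks before IL-4. Its EGR2 was 3.75 and 0 in basal cells, 5.24 and 134 at 6 h and 34.1 and 83.5 at 24 h, and the 6 h libraries spanned the 24 h ones. H3K27ac was high throughout (145 and 286 in basal cells, 215 and 296 at 24 h).

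EGR2 peaks of other strains overlapped these sites unevenly. In BALB 43.2% of the members had an EGR2 peak in basal macrophages and 54.2% at 24 h. In SPRET the shares were 10.3% and 45.1%, in PWK 2.70% and 14.2%, and in NOD 34.9% and 16.4%. NOD was thus the strain in which the 24 h share lay below the basal one. Its lists held 25341 basal and 16604 24 h peaks, whereas those of SPRET held 12301 and 39458, PWK 6201 and 14919, and BALB 28842 and 37104, and the part of list length in these shares was not tested.

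In 56.0% of members some other strain had a basal EGR2 peak, and in 67.4% some other strain had one at 24 h. The basal C57 list was shorter (8437 peaks) than those of BALB and NOD, and with the better-scored part of each list the basal share was 10.5% in BALB and 7.88% in NOD, so a peak listed in basal cells of another strain and not in C57 is no measure of a difference in timing. A peak at 24 h in at least 1 other strain and in none of their basal lists was found at 2707 members (19%). At 4641 members (32.6%) no other strain had a 24 h peak, and at 750 (5.27%) all 4 had one, against 72.5% of the sites present in basal C57 cells. SPRET had the most members with a peak at 24 h only (36.6%), followed by BALB (19.6%), PWK (12.8%) and NOD (3.27%).

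H3K27ac rose at a small share of the gained sites and did not rise at the median site. Of the 11195 open chromatin regions linked to members, 181 were called higher at 24 h than in basal C57 cells and 34 lower by limma (adjusted p under 0.05), which is 1.62% and 0.304%, against 1.13% and 0.327% of all 77955 regions. At 6 h 488 were called higher and 243 lower (4.36% and 2.17%, against 2.67% and 2.46%). At 1 h 150 were called higher and 1027 lower (1.34% and 9.17%, against 1.37% and 8.36%). The median site held 33.2 and 32.8 normalized tags of H3K27ac in basal cells, 27.1 and 14.1 at 1 h, 33.9 and 34.1 at 6 h and 28.9 and 31.5 at 24 h. The basal and 24 h libraries did not overlap at the median, with basal slightly higher.

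Scaling matters for the direction. The median log2 difference of members at 24 h was -0.26, against -0.22 over all regions, and became 0.03 and 0.05 when libraries were scaled by the median ratio over regions. The share of H3K27ac reads inside regions was 69.7% and 63.8% in the basal libraries and 46.4% and 41.2% at 24 h. At 1 h, where 1 library had 20.5% and the other 44.0%, median-ratio scaling turned the calls from 150 higher and 1027 lower to 234 higher and 91 lower. Without the 24 h replicate 2 the 24 h calls fell to 76. In the same way the 6 h calls fell to 43 (without the 6 h replicate 2) and the 1 h calls to 26 (without the basal replicate 2), and the 1 h calls reached 3885 without the 1 h replicate 1.

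**Figure D4:**
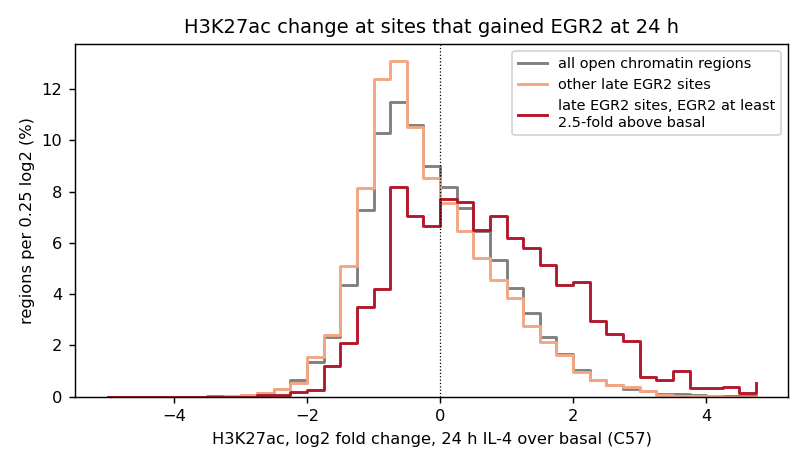
Distribution of the log2 difference in H3K27ac between 24 h IL-4 and basal C57 macrophages, as the share of regions per 0.25 log2 (%), for members whose EGR2 rose 2.5-fold with separate libraries, other members and all regions, with values beyond the axis in the outermost bins. The subset with higher EGR2 is centred at 0.54 and the other members at -0.36.

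H3K27ac was called higher after IL-4 at a larger share of member regions where EGR2 had risen 2.5-fold than at the other member regions. In the 1518 regions of members whose EGR2 rose 2.5-fold, 105 were called higher (6.92%, interval 5.69 to 8.31) and 2 lower, some of which were also linked to another member, while in the 9684 of the other members 76 were called higher (0.785%, 0.619 to 0.981) and 32 lower. Their median log2 differences were 0.54 and -0.36, or 0.79 and -0.06 with median-ratio scaling, which was added after the data were seen. H3K27ac comes from libraries that did not choose the subset, but the subset was defined after its values were known and from the C57 EGR2 tags. No test compared the subset with the other members. The intervals cover counting over regions only and not the spread between libraries. By the 2.5-fold rule with at least 16 normalized tags, 615 member regions rose (5.49%, against 3.77% of all regions) and 805 fell (7.19%, against 7.09%).

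At single sites H3K27ac changed early or late. At the Chic2 site, where the nearest gene encodes a membrane-associated protein, H3K27ac was 1.36 and 2.85 normalized tags in basal cells, 64.9 and 18.2 at 1 h, 97.8 and 161 at 6 h and 72.2 and 119 at 24 h. All IL-4 libraries exceeded the basal ones, and the 24 h difference was 4.96 ± 0.64 on the log2 scale (SE, limma adjusted p = 0.00083). EGR2 there was 3.75 and 2.69 in basal cells and 26.9 and 17.3 at 24 h. Its 6 h EGR2 libraries, at 22.7 and 15.8, overlapped those at 24 h, and a STAT6 peak was listed at 24 h only of the basal and 24 h lists.

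The Mef2c site followed a later course. Mef2c encodes a transcription factor of muscle and myeloid cells, and the site lay at chr13:83024082-83024291. EGR2 was 7.49 and 2.69 normalized tags in basal cells, 4.52 and 21.2 at 1 h, 10.5 and 67.7 at 6 h and 143 and 81.6 at 24 h. H3K27ac was 0.680 and 0.71 in basal cells, 4.64 and 6.54 at 1 h, 37.7 and 43.8 at 6 h and 45.0 and 74.2 at 24 h, a difference of 5.12 ± 0.58 at 24 h (limma adjusted p = 0.00054). Both 24 h libraries exceeded all others. CEBPb, STAT6 and PPARg peaks were listed at 24 h, and none of the 4 factors in basal cells. EGR2 peaks were also present at 24 h in BALB, NOD and SPRET and in no other strain's basal list.

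The other large rises were in introns of Mcf2l, which encodes a guanine nucleotide exchange factor, and Slc7a14, which encodes an amino acid transporter. In Mcf2l (chr8:12949256-12949509) H3K27ac was 0 and 0.71 in basal cells and 76.4 and 28.9 at 24 h (5.2 ± 0.65, limma adjusted p = 0.00083). In Slc7a14 (chr3:31266219-31266420) it was 1.36 and 0.71 in basal cells, 143 and 232 at 6 h and 86.6 and 52.5 at 24 h (5.09 ± 0.75, limma adjusted p = 0.0017). Both had gained STAT6 and PPARg peaks at 24 h. The largest falls were at intergenic sites nearest to Mrps23, a mitochondrial ribosomal protein gene, and Mfsd2a, a lipid transporter gene. The Mrps23 site had 193 and 328 normalized tags in basal cells and 18.7 and 32.8 at 24 h (-3.29 ± 0.56, limma adjusted p = 0.0055). The Mfsd2a site had 62.4 and 160 in basal cells and 10.2 and 13.1 at 24 h (-3.01 ± 0.66, limma adjusted p = 0.027). In both, H3K27ac was already low at 1 h, at 15.5 to 48.2 normalized tags.

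Few regions were called for Pol II, which marks transcription, and for the methylation marks of H3K4, and the Pol II and H3K4me2 counts moved widely when 1 library was left out. Pol II at 24 h was called higher at 67 and lower at 31 member regions (0.598% and 0.277%, against 0.503% and 0.174% of all regions). With replicate number as a block, which the Pol II samples allow, 300 were called, 157 higher and 143 lower, of 1841 calls over all regions. Median Pol II was 20.6, 18.5, 16.1 and 14.2 normalized tags in the basal libraries and 18, 16.8 and 14.1 at 24 h, so the groups overlapped. Without 1 library the count ran from 9 (without the 24 h replicate 1) to 225 (without the basal replicate 1). H3K4me2, a mark of enhancers and promoters, was called higher at 22 and lower at 3 of 10524 regions (0.209% and 0.0285%, against 0.179% and 0.0576% of all regions). Its median over members was 53.1 and 52.1 normalized tags in basal cells and 40.3 and 25.6 at 24 h, so the groups did not overlap and the 24 h libraries stood apart from each other. The median log2 difference was -0.70 in members and -0.69 over all regions, with 3766 members at an unadjusted p under 0.05, and became -0.02 and -0.01 with median-ratio scaling. The share of H3K4me2 reads inside regions was 37.1% and 37.2% in basal cells and 27.2% and 18.9% at 24 h, and its part in the difference was not tested. The calls numbered 0 without the 24 h replicate 2 and 5986 without the 24 h replicate 1, of which 5920 were lower. H3K4me3, a mark of promoters, had 0 calls in limma in members and 0% of all regions, with 2231 members at an unadjusted p under 0.05 and 74 called by edgeR.

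In the other strains the share of member regions where H3K27ac rose was somewhat above that of all regions. The share where it fell was somewhat below. These counts use the 2.5-fold rule and carry no test. In BALB 292 of 8867 regions rose and 383 fell (3.29% and 4.32%, against 2.84% and 5.13% of all regions). In NOD 447 of 9760 rose and 465 fell (4.58% and 4.76%, against 3.24% and 5.14%). In PWK 392 of 9072 rose and 237 fell (4.32% and 2.61%, against 3.10% and 3.01%). SPRET had 244 of 7739 that rose and 64 that fell (3.15% and 0.827%, against 2.64% and 0.939%). Median log2 differences of members lay between -0.22 and -0.08.

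Sites of this class were spread over many genes. They lay nearest to the starts of 7421 genes, and 11830 of 21951 protein-coding genes (53.9%) had at least 1 within 50 kb of a start. Of 150 genes in 12 lists of macrophage biology, 128 had one (85.3%), and 101 within 20 kb (67.3%, against 36.1% of all genes). Basal EGR2 peaks in these gene counts are 24 h peaks that were present in basal cells. They lay within 50 kb of 102 of the 150 genes (68.0%, against 46.2%). Earlier peaks absent from the 24 h list were not counted. The lists hold genes active in macrophages and were chosen with the study known, so a higher share than over all genes is a description of the lists. Fam129b had the most sites within 50 kb (12), followed by B4galt5, Notch2 and Slc36a3 with 10 each. Mpeg1, which encodes the pore-forming perforin-2 of phagocytes, had 9. It had no 24 h peak within 50 kb that was present in basal cells or gained at 1 or 6 h.

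All 6 genes of the EGR family and its corepressors had a gained site within 50 kb, and 5 had a basal peak. Gained sites numbered 4 at Nab2, 3 each at Egr1, Egr2 and Nab1, and 1 each at Egr3 and Egr4. The site in an intron of Egr2 itself (chr10:67539094-67539339, 3741 bp from the start) had EGR2 of 13.1 and 16.1 normalized tags in basal cells, 9.03 and 29.9 at 1 h, 8.73 and 29.5 at 6 h and 42.6 and 38.4 at 24 h. Its H3K27ac was 29.2 and 22.8 in basal cells, 335 and 44.4 at 1 h, 316 and 203 at 6 h and 237 and 142 at 24 h, with every IL-4 library above the basal ones (2.78 ± 0.72 at 24 h, limma adjusted p = 0.062). The Egr4 site had EGR2 of 12.6 and 16.1 in basal cells and 41.3 and 40.3 at 24 h, with H3K27ac of 3.40 normalized tags or less in all basal and 24 h libraries. At Egr1, an immediate early gene, EGR2 was 28.6 and 43.0 in basal cells and 57 and 45.1 at 24 h.

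Genes of the IL-4 receptor pathway had a gained site in 14 of 15 cases and a basal peak in 13. Gained sites numbered 6 at Stat6, 5 each at Cish and Jak3 and 4 each at Ptpn1 and Socs3. At Jak2, the kinase gene, the site 12102 bp from the start (chr19:29239623-29239829) had EGR2 of 11.2 and 17.5 in basal cells, 17.5 and 111 at 6 h and 41.3 and 76.8 at 24 h. Its H3K27ac was 2.04 and 2.14 in basal cells, 47.9 and 27.5 at 1 h, 74.7 and 93.7 at 6 h and 98.5 and 58.4 at 24 h, with the 24 h libraries far above the basal ones (4.64 ± 0.56, limma adjusted p = 0.00083). At Cish, a feedback inhibitor of cytokine receptors, EGR2 was 7.02 and 10.7 in basal cells, 29.8 and 74.3 at 1 h, 41.9 and 77.9 at 6 h and 44.0 and 63.4 at 24 h. The Cish site thus had most of its EGR2 signal by 1 h without a listed peak until 24 h. Its H3K27ac was 273 and 235 in basal cells and 194 and 152 at 24 h (-0.56 ± 0.57, limma adjusted p = 0.61).

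Among markers of alternative activation 14 of 17 genes had a gained site within 50 kb (82.4%, against 53.9% of all genes) and 9 within 20 kb. A basal EGR2 peak lay within 50 kb of 6 (35.3%, against 46.2% of all genes). Tgm2 (transglutaminase 2) had 7 gained sites, Mrc1 (the mannose receptor) and Cdh1 (E-cadherin) 5, and Clec10a, Matk and Tmem26 4 each. Arg1 (arginase 1) had 2, both more than 20 kb from the start, and Retnla and Chil3 had 1 each. Cd163, Cd209e and Fbp1 had none. The Tmem26 site had EGR2 of 7.02 and 22.8 in basal cells and 44.9 and 73.9 at 24 h, with the libraries apart, and lay 266 bp from an earlier peak. The Cdh1 site had EGR2 of 7.49 and 22.8 in basal cells, 15.3 and 95.5 at 1 h and 49.4 and 52.8 at 24 h, and its H3K27ac was 17.6 and 19.2 in basal cells and 28.9 and 47.9 at 24 h (0.98 ± 0.57, limma adjusted p = 0.38).

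Lectins and scavenger receptors had a gained site in 9 of 10 genes and a basal peak in 4, led by Clec4d with 6 and Clec4e and Clec4n with 5. The site shared by Clec4e and Clec4d, receptors for microbial glycolipids, had EGR2 of 16.4 and 52.4 in basal cells and 25.1 and 71.0 at 24 h, so its groups overlapped, and H3K27ac of 8.14 normalized tags or less. Genes of lipid uptake and storage had one in 12 of 14 cases, all 12 within 20 kb, and a basal peak in 8, with 6 sites each at Abcg1, Cd36 and Hilpda. At Plin2, which coats lipid droplets, EGR2 was 17.3 and 9.40 in basal cells and 48.0 and 34.6 at 24 h, with the libraries apart. The Hilpda site, 63 bp from the start, had EGR2 of 22.9 and 25.5 in basal cells and 58.4 and 30.7 at 24 h.

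Antigen presentation genes had a gained site in 8 of 10 cases and a basal peak in 8. Gained sites numbered 6 at Cd86 and 5 each at Cd40 and Cd80, which encode costimulatory molecules. Arginine and polyamine genes had a gained site in 9 of 11 cases and a basal peak in 7. Nos2 had 5 gained sites, and no 24 h peak within 50 kb that was present in basal cells or gained at 1 or 6 h. Inflammatory genes had a gained site in 11 of 16 and a basal peak in 9, with 7 gained sites each at Tlr4, Il1b and Tnf. At Tlr4, the endotoxin receptor gene, the nearest earlier EGR2 peak lay 1222961 bp away, and the intronic site had EGR2 of 24.8 and 14.8 in basal cells and 57 and 24.0 at 24 h, so the 24 h replicate 2 lay just below the basal replicate 1. Its H3K27ac was 482 and 598 in basal cells and 389 and 405 at 24 h.

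Chemokines and cytokines had a gained site in 12 of 14 genes and a basal peak in 12. Gained sites were most numerous at Ccl9 with 9, Ccl6 with 8 and Csf1 with 7. The Ccl6 site, 544 bp from the start, had EGR2 of 16.4 and 9.40 in basal cells and 31 and 82.6 at 24 h, with the libraries apart, and H3K27ac of 223 and 220 in basal cells and 203 and 161 at 24 h. Growth factors of repair had a gained site in 9 of 10 genes and a basal peak in 6. Hbegf, a ligand of the EGF receptor, had EGR2 of 11.2 and 28.2 in basal cells, 3.49 and 106 at 6 h and 77.2 and 105 at 24 h. Matrix proteases and inhibitors had a gained site in 10 of 10 and a basal peak in 8, with 5 gained sites at Ctsl and 4 each at Mmp12, Mmp14 and Timp2.

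Macrophage transcription factors had a gained site in 17 of 20 genes and a basal peak in 17. Gained sites numbered 9 at Cebpb, 6 at Klf6 and 4 each at Cebpa, Maf, Myc, Runx1 and Spi1. The Irf4 site, 38962 bp from the start of a regulator of IL-4 responses in macrophages, lay at chr13:30788080-30788297. Its EGR2 was 17.8 and 32.2 in basal cells, 15.7 and 86.1 at 6 h and 75.4 and 78.7 at 24 h, and H3K27ac was 9.50 and 10.7 in basal cells, 17.7 and 32.2 at 6 h and 39.9 and 68.3 at 24 h (2.26 ± 0.58, limma adjusted p = 0.058). The 24 h libraries exceeded the basal ones in both measures. PU1, CEBPb and STAT6 peaks were listed there at 24 h and not in basal cells.

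Scaled to library totals, signal at the gained sites was lower in LyzM-Cre Egr2 fl/fl than in Egr2 fl/fl macrophages at 24 h in several marks and factors, and with median-ratio scaling H3K27ac calls were near even in direction. The tables of the genotypes hold 4677 EGR2 sites chosen by the authors, of which 3565 were members, 1086 were gained at 1 or 6 h and 26 were present in basal cells. They include 1917 of the 2312 members with a 2.5-fold EGR2 rise and 1648 of the other 11925, and the background shares below are therefore largely those of the members. Median H3K27ac over the 3565 sites was 14.5 and 12.2 normalized tags in basal Egr2 fl/fl cells and 23.1 and 23.1 at 24 h, and 10.0 and 9.53 in basal LyzM-Cre cells and 12.5 and 12.2 at 24 h. The 24 h libraries of the genotypes did not overlap. H3K27ac was called lower in LyzM-Cre cells at 817 sites and higher at 45 (22.9% and 1.26%, against 23.2% and 1.41% of the table), with a median log2 difference of -0.55.

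**Figure D5:**
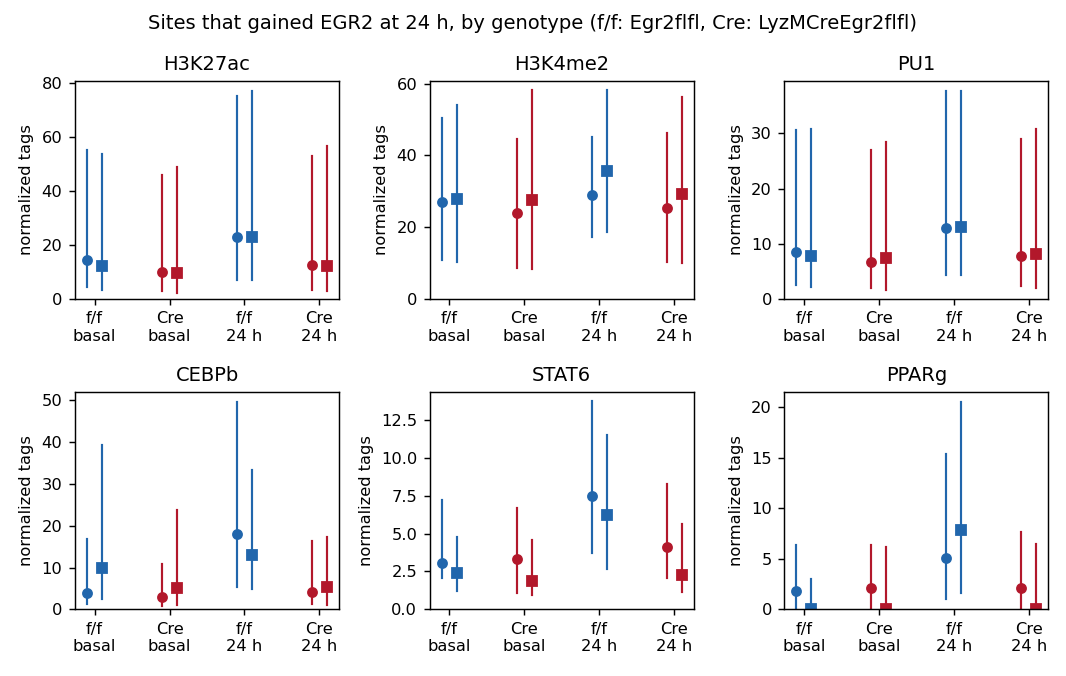
Median normalized tags, scaled to library totals, over 3565 sites gained only at 24 h, for each mark or factor and each library of Egr2flfl (f/f) and LyzMCreEgr2flfl (Cre) macrophages in basal and 24 h IL-4 conditions, with a circle for replicate 1, a square for replicate 2 and lines from the lower to the upper quartile over sites. At 24 h the H3K27ac medians are 23.1 and 23.1 without Cre and 12.5 and 12.2 with Cre.

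This direction depends on the scaling. Median-ratio scaling over the same sites sets the typical site to no difference by construction, and H3K27ac was then lower at 372 and higher at 336 members, with a median of -0.07. By the 2.5-fold rule on library totals, H3K27ac fell at 439 members (12.3%, against 12.9%) and rose at 5. In basal cells the median log2 difference between genotypes was -0.22 on the same scale (pseudocount 1). The interaction of genotype and IL-4, which asks whether the IL-4 response itself differed, had 0 calls in limma in members and 0% of the table, with 451 members at an unadjusted p under 0.05 and 0 called by edgeR. The Egr2 fl/fl response to IL-4 was called higher at 782 and lower at 93 members (21.9% and 2.61%, against 25.6% and 2.54%), or 399 and 396 with median-ratio scaling. Members make up 3565 of the 4677 sites of that table, and among the other 1112 sites 37.2% were called higher and 2.34% lower.

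C57 and Egr2 fl/fl macrophages can be compared at the 2443 members present in both tables. Median H3K27ac was there 16.3 and 16.4 normalized tags in basal C57 cells and 23.8 and 29.5 at 24 h. In Egr2 fl/fl it was 26.4 and 24.4 in basal cells and 39.2 and 40.5 at 24 h, and in LyzM-Cre cells 20.1 and 20.2 and then 23.9 and 24.4. On library totals, all 3 were higher at 24 h with no overlap of libraries. The authors' choice of sites described above favours members with a 2.5-fold EGR2 rise. Over all 11195 member regions the C57 median was 33.2 and 32.8 in basal cells and 28.9 and 31.5 at 24 h. The windows of the tables differ, so levels are compared only within a table.

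On library totals, factor binding showed the same order. PU1 medians at 24 h were 12.8 and 13 normalized tags in Egr2 fl/fl and 7.80 and 8.08 in LyzM-Cre cells. It was called lower at 332 and higher at 3 members (9.31% and 0.0842%, against 9.36% and 0.0855%), or 179 and 84 with median-ratio scaling. H3K4me2 medians were 29 and 35.5 against 25.3 and 29.2, so that libraries overlapped, and it was called lower at 334 and higher at 6 (9.37% and 0.168%, against 8.94% and 0.150%), or 123 and 27 with median-ratio scaling. CEBPb medians were 18.1 and 13 against 4.07 and 5.36. It was called lower at 331 members and higher at 0 (9.28% lower, against 8.25% of the table and 4.95% of its other 1112 sites), with 66 called by edgeR and 0 with median-ratio scaling.

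STAT6 and PPARg had lower medians in LyzM-Cre cells without calls. STAT6 was 7.47 and 6.2 normalized tags in Egr2 fl/fl and 4.12 and 2.25 in LyzM-Cre cells at 24 h. Its 0 calls in limma among members stood against 0.0214% of the table, with 480 members at an unadjusted p under 0.05 and 5 called by edgeR. PPARg was 5.12 and 7.88 against 2.09 and 0. It too had 0 calls in limma and 0% of the table, with 495 members at an unadjusted p under 0.05 and 0 called by edgeR. By the 2.5-fold rule with at least 8 normalized tags, which carries no test, PU1 fell at 292 members (8.19%, against 8.36%), CEBPb at 1171 (32.8%, against 31.7%), STAT6 at 323 (9.06%, against 11.5%), PPARg at 1058 (29.7%, against 31.6%) and H3K4me2, with at least 16, at 197 (5.53%, against 5.73%).

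The share of reads at the 4677 sites moved with genotype and IL-4. For H3K27ac at 24 h it was 3.41% and 3.69% in Egr2 fl/fl and 2.94% and 3.24% in LyzM-Cre cells, for CEBPb 2.09% and 1.35% against 1.01% and 0.826%, and for PPARg 0.805% and 1.07% against 0.381% and 0.381%. At these shares the median PPARg site held few reads, and a site without a change could not be told from one with a small change. Leaving out Egr2 fl/fl 24 h replicate 1 took the PU1 and CEBPb calls to 0 and those of H3K27ac to 329, and the PPARg calls to 190.

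The sites with the largest fall in H3K27ac by genotype had little or none left in LyzM-Cre cells. In an intron of Dact2, an inhibitor of Wnt and TGF-beta signalling, H3K27ac was 7.67 and 1.36 normalized tags in basal Egr2 fl/fl cells, 32.2 and 6.42 at 24 h, and 0 in both LyzM-Cre 24 h libraries (limma adjusted p = 0.0033). In an intron of Smyd3, a methyltransferase gene, it was 31.2 and 15.4 at 24 h against 1.04 and 0 (-4.01 ± 0.69, limma adjusted p = 0.00087). The groups did not overlap at either site. Their EGR2 in C57 was 6.09 and 8.06 in basal cells and 25.6 and 14.4 at 24 h at Dact2, and 7.96 and 2.69 and then 33.7 and 14.4 at Smyd3. The intronic Galnt9 site (chr5:110565041-110565279), in a glycosyltransferase gene, had 24.1 and 20.6 against 0 and 1.16 (-3.98 ± 0.60, limma adjusted p = 0.00034). On library totals CEBPb at the Galnt9 site was likewise lower, at 24.8 and 21.9 against 0 and 3.22 (-3.57 ± 1.00, limma adjusted p = 0.018), and so was PU1, at 6 and 1.85 against 0 in both libraries (-2.16 ± 0.64, limma adjusted p = 0.044). At the Pzp site (chr6:128533401-128533602), near a protease inhibitor gene, it was 36.2 and 26.3 against 0 and 0.580 (-4.66 ± 0.61, limma adjusted p = 0.00017).

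Sites described above by their IL-4 response differed in how they stood by genotype. At the Mef2c site H3K27ac at 24 h was 55.3 and 42.4 normalized tags in Egr2 fl/fl and 3.12 and 4.64 in LyzM-Cre cells (-3.36 ± 0.53, limma adjusted p = 0.00050), with basal libraries of both genotypes at 1.68 or less. At the Slc7a14 site it was 287 and 245 against 252 and 258 (-0.06 ± 0.27, limma adjusted p = 0.90), and at Jak2 63.3 and 64.9 against 90.4 and 78.9 (0.39 ± 0.37, limma adjusted p = 0.48). Chic2 lay between, at 221 and 177 against 104 and 133 (-0.74 ± 0.37, limma adjusted p = 0.16). At Irf4 it was 49.2 and 76.4 against 20.8 and 16.8 (-1.66 ± 0.39, limma adjusted p = 0.0059), and at Tmem26 219 and 204 against 95.6 and 94.0 (-1.15 ± 0.29, limma adjusted p = 0.0088). At the Egr2 intron it was 153 and 198 against 161 and 143 (-0.19 ± 0.25, limma adjusted p = 0.63), so these libraries overlapped.

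Of the sites with the largest EGR2 rise in C57, those at Cd47, Diaph3 and Fbn1 had lower H3K27ac in LyzM-Cre than in Egr2 fl/fl cells. At Diaph3 H3K27ac at 24 h was 14.1 and 11.6 in Egr2 fl/fl and 1.04 and 0 in LyzM-Cre cells (-3.27 ± 0.63, limma adjusted p = 0.0018). The Cd47 site had 9.05 and 4.50 against 1.04 and 0.580 (-2.05 ± 0.62, limma adjusted p = 0.025), and Fbn1 74.4 and 61.7 against 18.7 and 20.9 (-1.73 ± 0.40, limma adjusted p = 0.0053). The LyzM-Cre libraries at Fbn1 were still above their basal values of 2.01 and 3.92. Csf1 had 7.04 and 8.35 against 2.08 and 1.74, with the libraries apart and no call (-1.58 ± 0.61, limma adjusted p = 0.069). Sft2d2 went the other way, with 321 and 342 against 490 and 507 (0.59 ± 0.19, limma adjusted p = 0.030).

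The largest rises in LyzM-Cre cells were at intergenic sites nearest to Maf, a macrophage transcription factor gene, and Enpp7, a sphingomyelinase gene. The Maf site (chr8:115536946-115537189) had H3K27ac of 20.1 and 12.8 in Egr2 fl/fl and 74.8 and 45.3 in LyzM-Cre cells at 24 h (1.79 ± 0.43, limma adjusted p = 0.0071), and the Enpp7 site 2.01 and 10.9 against 16.6 and 23.8 (1.80 ± 0.58, limma adjusted p = 0.032). Both carried PU1, CEBPb and STAT6 peaks in basal C57 cells and a PPARg peak at 24 h.

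The largest falls in factor signal by genotype, on library totals, lay in introns of Slc35a3 (PU1), Lims1 (CEBPb) and Mmp12 (STAT6) and near Psap (PPARg). The basal and 24 h lists of C57 held no PU1 peak at the Slc35a3 site and no STAT6 peak at the Mmp12 site. In Slc35a3, a nucleotide sugar transporter gene (chr3:116681670-116681889), PU1 at 24 h was 19.7 and 20.4 normalized tags in Egr2 fl/fl and 0 and 1.01 in LyzM-Cre cells (-3.89 ± 0.58, limma adjusted p = 0.0020). Its basal PU1 was 3.13 or less in both genotypes, and H3K27ac at 24 h was 27.1 and 27 against 2.08 and 5.22 (-2.68 ± 0.75, limma adjusted p = 0.016). In Lims1, an adaptor gene of cell adhesion (chr10:58376757-58376958), CEBPb was 45.4 and 25.2 against 0.680 and 0 (-4.75 ± 1.02, limma adjusted p = 0.0051), whereas H3K27ac was 6.03 and 3.21 against 4.16 and 5.22.

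In Mmp12, a macrophage elastase gene (chr9:7362660-7363002), STAT6 was 29.9 and 7.97 normalized tags in Egr2 fl/fl and 1.03 and 0 in LyzM-Cre cells, without a call. Near Psap, which encodes the lysosomal saposins (chr10:60253558-60253759), PPARg was 61.4 and 72.5 in Egr2 fl/fl at 24 h and 0 in both LyzM-Cre libraries, also without a call. H3K27ac there was 354 and 351 against 170 and 194 (-0.95 ± 0.19, limma adjusted p = 0.0020), with the groups apart.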

How the data were processed

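EGR2, STAT6, PPARg, PU.1 (PU1), CEBPb, RNA polymerase II (Pol II), H3K27ac, H3K4me2 and H3K4me3 ChIP-seq of mouse BMDMs were used, in 102 of the libraries of a series of 267 samples. For EGR2, STAT6 and PPARg the cells were also fixed with disuccinimidyl glutarate before formaldehyde. By their own methods the authors mapped C57 reads on mm10 with Bowtie2 and those of the other strains on a genome made for each strain, shifting them to mm10 with MMARGE, called peaks of 200 bp without filters with HOMER and kept those reproducible between replicates by IDR, so each deposited list stands for a group. The score and count of each peak are as the authors deposited them, and lists were otherwise used by position. The deposited signal values are HOMER tags that the authors scaled to 10000000 per library, in windows of 1000 bp for histone marks and 300 bp for factors, and the whole reads behind them were recovered for 100% of 3385266 values within 0.1 read. No label fitted 4 columns of values, which were not used. The deposited tables' assignments of regions to time points by the authors were read only for the EGR2 counts and the open chromatin shares given above.

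Members, classes and overlaps (1 bp) were computed in Python 3.11.15 (scipy 1.17.1, numpy 2.4.6, pandas 2.3.3) and drawn with matplotlib 3.10.9. Groups were compared with limma 3.58.1 (R 4.3.3, empirical Bayes with trend) on log2(normalized tags + 1), without a filter, over each whole table, with Benjamini-Hochberg adjustment and a threshold of 0.05. Fold changes are on that scale, which understates change at low values. A size rule asked for 2.5-fold with pseudocount 1 and 16 normalized tags in either group (8 for Pol II and factors). The limma fit was tested on simulated data. Alternatives were pseudocount 5, filters on the mean, median-ratio scaling, a replicate block, leaving out each library, and edgeR 4.0.16 on the recovered reads. The 3 Pol II pairs with shared replicate numbers in basal and 24 h groups deviated together (r = 0.19, 0.28 and 0.37), and the pairing comes from the numbers in the labels. The protocol calls replicates biological, and p-values measure only the spread between these samples.

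Open chromatin regions were joined within 500 bp of the peak centre, genes by distance to the start in GENCODE vM21, and sequence came from the mm10 build of RefSeq (GRCm38.p6), with 200 bp windows. Intervals are exact (Clopper-Pearson) and cover counting error only. Members, gene lists and rules were chosen with earlier results of these data known. The sites named are the 6 with the highest EGR2 at 24 h, those with the largest size-rule change in H3K27ac by IL-4 (4 rises, 2 falls) and by genotype (4 falls, 2 rises), the site with the largest fall by genotype for each factor, and the 3 strongest EGR2 sites of each gene list, of which those described were picked after their values were seen. The 6 with the largest EGR2 rise, their sequences, and the subset with a 2.5-fold EGR2 rise were chosen after their values were seen. The result of 1 list of cell type markers is not reported here.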

Additional observations from a re-analysis of the deposited data

Results flagged for a closer look

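Pol II was also measured in 1 library per group of the genotypes, which no comparison above uses. Over the 3565 sites the median was 7.51 normalized tags in basal Egr2 fl/fl cells and 10.2 at 24 h, and 5.85 and 6.65 in LyzM-Cre Egr2 fl/fl cells. The 24 h Egr2 fl/fl library exceeded its basal control, and with 1 library per group the differences have no replicate check. The basal C57 Pol II group was the only one with 4 libraries, and none of its medians stood apart.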

How the results depend on the processing

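All counts here are of member sites or regions called by limma unless stated. In C57, H3K27ac calls at 1 h were 325 with median-ratio scaling and 3254 with a replicate block. At 6 h they were 448 with a minimum mean of 16 normalized tags and 1838 with the block, and at 24 h 111 and 1074. The block gave 300 Pol II calls, 69 H3K4me2 calls and 1880 H3K4me3 calls. H3K4me2 had 2 with the minimum, 45 with median-ratio scaling and 13 in edgeR, and H3K4me3 had 74 in edgeR. By genotype, H3K27ac had 507 calls with the minimum and H3K4me2 52, or 150 with median-ratio scaling. PU1 had 506 with pseudocount 5 and 520 in edgeR. CEBPb had 611 with pseudocount 5, 113 with a minimum mean of 8, 0 with median-ratio scaling and 66 in edgeR. STAT6 had 74 with pseudocount 5, 101 with the block and 5 in edgeR. PPARg had 10 with the minimum of 8. The interaction had 39 with pseudocount 5 and 48 with the block, and the Egr2 fl/fl response 568 with the minimum of 16. The minimum tests fewer sites. The cause of the other shifts was not tested. Apart from Pol II, groups shared only 2 replicate numbers, so their samples share a number and not a stated pairing. Leaving out each library gave H3K27ac counts of 26 to 3885 at 1 h, 43 to 847 at 6 h and 76 to 176 at 24 h, Pol II 9 to 225, H3K4me2 0 to 5986 and H3K4me3 0. By genotype these were 329 to 683 for H3K27ac, 92 to 247 for H3K4me2, 0 to 179 for PU1, 0 to 76 for CEBPb, 0 for STAT6, 0 to 190 for PPARg and 0 to 12 for the interaction, and 423 to 663 for the Egr2 fl/fl response. An arm left with 1 library was assumed to vary like the others.

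The share of members with a 24 h peak was 50.8% for PU1, 37.8% for CEBPb, 45.4% for STAT6 and 29.5% for PPARg when centres had to lie within 100 bp, and 39.8%, 27.5%, 29.3% and 22% with the better-scored part of the other list. The same settings gave SPRET EGR2 shares of 41.4% and 21.8%, PWK 12.1% and 2.70%, BALB 50.3% and 19.9%, and NOD 15.6% and 3.36%. In basal cells they gave 8.83% and 1.92% in SPRET, 2.17% and 0.576% in PWK, 39.8% and 10.5% in BALB and 31.6% and 7.88% in NOD, against 10.3%, 2.70%, 43.2% and 34.9%. Members numbered 1966 among the better-scored 24 h peaks, 626 with lists of equal length and 13531 with no earlier peak within 500 bp. EGR letters stood in 18.3% of 100 bp windows. Over the main results, 51 alternatives stayed near the reported value and 48 moved, apart from those that leave out a library. At totals near 5728050 reads a weak site held few reads, and a missing peak is not absence of EGR2.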
